A study of Drosophila melanogaster with 3 samples.

Results

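Chromatin regions whose summits fell inside coding exons were examined in a map of HHEX-GFP occupancy made by chromatin immunoprecipitation and sequencing (ChIP-seq). A region was taken when its summit lay in annotated coding sequence and more than 500 bp from every transcription start site (TSS) of the dm6 annotation, transposable elements and pseudogenes left aside. By this rule 1153 of the 30000 regions of the pooled list were chosen, or 3.84% (1145 when all annotated genes are kept), and the other 28847 regions served for comparison. The choice used position only and no signal value. The material was whole Drosophila melanogaster embryos of pooled sexes, aged 0 to 24 h, from 1 transgenic line that stably expresses CG7056, the HHEX gene, fused at its C-terminus to GFP. Chromatin was sonicated to 200 to 800 bp and precipitated with an antibody against GFP in 3 biological replicates, as the labels call them, all of 1 group. There was no other genotype, stage or treatment, and an untagged line was not analysed here. A region enriched in any precipitation with this antibody, or held by the tagged protein alone, cannot be told apart from a site of native HHEX. Whole embryos mix all embryonic cell types and ages, so the cells that carry a region are not known.

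HHEX is a homeodomain transcription factor, and homeodomains bind short A/T-rich words in DNA, mostly in promoters, introns and intergenic enhancers. Coding exons carry the codons of a protein, so their base order is constrained by the amino acids they specify, and in Drosophila they are richer in G and C than introns and intergenic DNA. Coding sequence can hold binding sites for transcription factors as well as codons.

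The coding sequence at the summits is shown for 8 of the peaks that also passed the irreproducible discovery rate (IDR) procedure, which keeps peaks that rank alike between replicates. These sequences show where a summit stood against the edges of a coding exon and which bases lay there. Each runs 5′ to 3′ on the strand of its host gene and covers up to 100 bp on either side of the summit, without untranslated bases. Capitals are annotated coding bases of the host gene, and lower-case letters are bases outside them. Sequence is from genome release 6 as held by RefSeq, with dm6 coordinates.
Pde1c, chr2L:11816558-11816673, minus strand: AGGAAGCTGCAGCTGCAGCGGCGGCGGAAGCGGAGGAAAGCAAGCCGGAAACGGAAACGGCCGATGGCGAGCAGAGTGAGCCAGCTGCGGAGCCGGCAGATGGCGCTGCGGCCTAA
l(3)mbn, chr3L:6124718-6124917, minus strand: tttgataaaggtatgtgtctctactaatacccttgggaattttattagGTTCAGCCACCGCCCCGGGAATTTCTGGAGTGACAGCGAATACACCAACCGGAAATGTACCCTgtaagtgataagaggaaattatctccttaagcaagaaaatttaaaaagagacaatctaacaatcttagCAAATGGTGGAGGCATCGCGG
bif, chrX:11681691-11681890, plus strand: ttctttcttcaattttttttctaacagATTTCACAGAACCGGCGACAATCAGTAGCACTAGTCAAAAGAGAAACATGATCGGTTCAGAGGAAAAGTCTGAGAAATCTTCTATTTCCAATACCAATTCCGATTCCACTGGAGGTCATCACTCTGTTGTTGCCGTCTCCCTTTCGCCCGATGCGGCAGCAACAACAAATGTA
Socs36E, chr2L:18141660-18141859, minus strand: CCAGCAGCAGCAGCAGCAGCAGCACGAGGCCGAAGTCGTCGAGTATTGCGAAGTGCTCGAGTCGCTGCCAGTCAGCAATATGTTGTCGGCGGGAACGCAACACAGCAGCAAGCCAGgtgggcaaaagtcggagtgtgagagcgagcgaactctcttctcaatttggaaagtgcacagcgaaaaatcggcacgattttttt
Ubr1, chrX:16967540-16967672, minus strand: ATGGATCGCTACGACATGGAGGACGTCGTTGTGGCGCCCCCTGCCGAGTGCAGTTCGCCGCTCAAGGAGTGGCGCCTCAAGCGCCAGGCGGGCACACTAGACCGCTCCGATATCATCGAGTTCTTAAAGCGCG
Snx27, chrX:5737212-5737411, minus strand: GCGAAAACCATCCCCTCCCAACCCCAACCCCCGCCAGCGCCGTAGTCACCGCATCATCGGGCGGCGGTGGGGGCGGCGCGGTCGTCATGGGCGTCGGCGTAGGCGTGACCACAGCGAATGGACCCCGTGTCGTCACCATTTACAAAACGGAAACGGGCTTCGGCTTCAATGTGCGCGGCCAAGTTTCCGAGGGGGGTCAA
Cht6, chrX:10043960-10044159, plus strand: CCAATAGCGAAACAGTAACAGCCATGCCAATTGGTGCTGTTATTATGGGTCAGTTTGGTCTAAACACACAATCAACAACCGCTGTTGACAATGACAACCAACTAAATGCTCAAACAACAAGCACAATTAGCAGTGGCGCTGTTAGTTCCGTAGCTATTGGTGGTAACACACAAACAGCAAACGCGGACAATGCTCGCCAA
CG13086, chr2L:19364899-19365098, plus strand: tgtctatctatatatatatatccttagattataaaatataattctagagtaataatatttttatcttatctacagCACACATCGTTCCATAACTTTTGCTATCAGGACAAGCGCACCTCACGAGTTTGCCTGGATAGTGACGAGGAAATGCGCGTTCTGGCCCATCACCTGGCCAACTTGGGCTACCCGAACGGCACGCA

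The stretch at Pde1c ended with the stop codon of the gene, and that at Ubr1 opened with its start codon. At l(3)mbn the summit lay in a coding exon of 63 bp, and 116 of the 200 bases shown were outside coding sequence. At bif 27 of the 200 bases were non-coding, at Socs36E 84 and at CG13086 75. At Snx27 and Cht6 all 200 bases were coding. The Socs36E stretch held CAGCAG 7 times, with overlaps counted and both strands read, and a GC content of 54.5%, against 65.5% at Snx27 and 44.5% at Cht6.

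Of the 1153 coding exon regions, 21 were in the IDR list, or 1.82% with an exact (Clopper-Pearson) 95% interval of 1.13 to 2.77%. In the whole pooled list 18.6% of regions were IDR peaks, and of the other regions 19.3% were. The interval covers counting error only. The IDR list held the 5586 regions of highest pooled signal and no other, so IDR membership and pooled signal are not separate measurements. All 21 coding exon peaks were found in each of the 3 replicate lists, and 10 of them ranked among the 5586 highest regions of every replicate. Of the other regions, 94.3% to pooled rank 3000 and 83.3% from 3001 to 6000 were found in all 3 lists. There were 5565 other IDR peaks, and 3401 other regions ranked among the 5586 highest of every replicate. How many regions were in both of these sets was not counted. Signal is the authors' value per region, on a scale that was not equalised between lists.

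Among host genes for regulators of transcription and RNA, otp stood highest. It encodes Orthopedia, a homeodomain protein of the brain and hindgut. Its peak, at chr2R:20884417-20884762, lay in the last coding exon, which was exon 8 of 8 in the transcript. The summit was 4644 bp from the nearest TSS, and the peak had a pooled signal of 1487 and rank 95. Replicates 1, 2 and 3 gave otp signals of 364, 636 and 485, at ranks 216, 51 and 87. This was high in every replicate, and it was the highest coding exon region in the pooled list. The gene bun, which encodes a TSC22-family protein, had a peak of pooled signal 234 in the first coding exon of 1 transcript, with replicate signals of 81.6, 61.7 and 69.8. The jing gene, for a zinc finger protein, had a pooled signal of 171, and its replicate signals of 48.3, 39.6 and 86.2 were less even, with replicate 3 highest. The fl(2)d gene, for a subunit of the complex that methylates adenosine in messenger RNA, had the lowest pooled signal of the 21 peaks, 160, with replicate signals of 29.2, 56.0 and 51.0.

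Host genes for signalling proteins and enzymes made up a larger number. Pde1c, a calcium- and calmodulin-dependent phosphodiesterase that degrades cyclic nucleotides, had the second highest pooled signal, 1210, at chr2L:11816409-11816746. Its signals were 381, 474 and 355 in replicates 1, 2 and 3, at ranks 195, 124 and 198, so that the replicates lay close together. Its summit was 16 bp from the end of the coding sequence, in the last coding exon, which was exon 9 of 9 in the transcript. Socs36E, an inhibitor of JAK/STAT signalling, had a pooled signal of 244 and replicate signals of 120, 114 and 105, the summit again being 16 bp from a coding exon edge. The polarity kinase gene par-1 had a pooled signal of 211, with 69.6, 70.2 and 46.7 in the replicates, replicate 3 being lowest. Dab, which encodes an adaptor protein of Abl tyrosine kinase signalling, had a pooled signal of 181, with 67.0, 76.6 and 54.2. Its summit lay 20 bp from the edge of a coding exon that carries the start codon. Ubr1, a ubiquitin ligase gene of the N-degron pathway, had 198, with 87.5, 57.2 and 50.7 in the replicates. GstO3, for an omega-class glutathione S-transferase, was among the least even, with 38.6 in replicate 1, 28.2 in replicate 2 and 93.1 in replicate 3 beside a pooled signal of 173. The chitinase gene Cht6 had a pooled signal of 173 and 53.5, 45.1 and 63.6 in the replicates.

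The other hosts of IDR peaks encode structural, transport and less studied proteins. l(3)mbn had a pooled signal of 578 at chr3L:6124672-6124947 and replicate signals of 172, 219 and 188. CG5895 had 400 in the pooled list and 142, 117 and 136 in the replicates. Both were high in every replicate, and their summits lay 11 bp and 19 bp from a coding exon edge. The actin-binding protein gene bif had 332 at chrX:11681579-11682002, with 111, 97.9 and 124 in the replicates. CG4822, for a predicted ABC transporter, had 295, with 96.8, 62.9 and 126, and its coding exon also lay in an intron and an untranslated exon of other transcripts. Tim17b1, for a subunit of the translocase that imports proteins across the inner mitochondrial membrane, had 246, with 90.0, 82.9 and 75.7. The sorting nexin gene Snx27 had 239, with 82.4, 62.1 and 73.1, so that both were even between replicates. For klar, whose product links nuclei and other cargo to microtubules, the pooled signal was 170 and the replicate signals were 28.7, 86.3 and 54.5, with replicate 2 highest. The remaining hosts, CG31259, CG1632 and CG13086, had pooled signals of 207, 178 and 163.

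**Figure D1:**
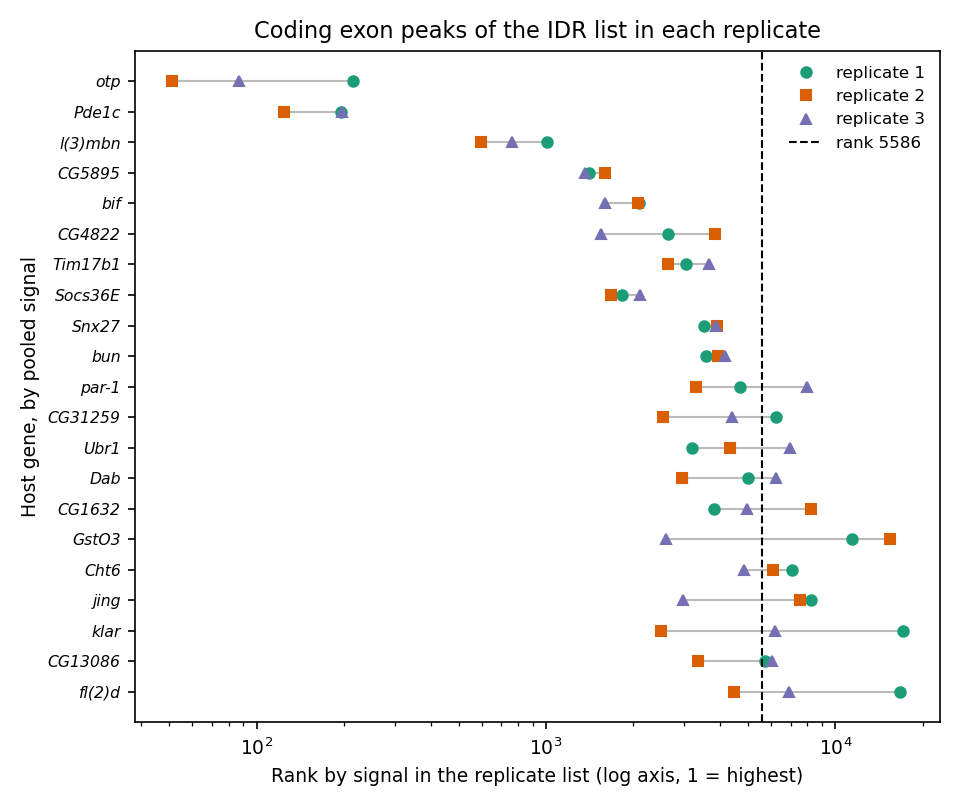
Rank by signal of the 21 coding exon peaks of the IDR list in replicate 1 (circles), replicate 2 (squares) and replicate 3 (triangles) on a log axis, with hosts ordered by pooled signal from otp at the top. The first 10 hosts lie left of rank 5586 in every replicate, while GstO3, klar and fl(2)d have at least 1 replicate at rank 11429 or beyond.

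As the plot of ranks shows, the 10 hosts with the highest pooled signal kept all 3 replicates within the highest 5586 regions, and each of the other 11 had at least 1 replicate outside. The ranks of GstO3 were 11429, 15414 and 2601, those of klar 17136, 2496 and 6197, and those of fl(2)d 16707, 4460 and 6904. Peaks of this kind were high in some replicates only. The same split was not computed for the other IDR peaks, so it does not set coding exon peaks apart. By arm, 5 of the 21 lay on X, 5 on 2L, 4 on 2R, 5 on 3L, 2 on 3R and none on 4.

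Just outside the IDR threshold, the highest coding exon regions were at CG31522, with a pooled signal of 147, at ftz-f1, with 144, and at CG32425, with 143. Just inside it were klar at 170, CG13086 at 163 and fl(2)d at 160. The lowest IDR peak of any kind had 156. At ftz-f1, which encodes a nuclear receptor that acts in segmentation and metamorphosis, the replicate signals were 65.2, 42.2 and 40.8. The other coding exon regions of highest signal below the threshold that were found in all 3 lists lay in hig, a gene for a secreted synaptic protein (142), Naprt, for nicotinate phosphoribosyltransferase (140), the tyrosine kinase gene Abl (135), the septate junction gene bou (135), CG31975 (133), the adaptor protein gene cindr (132) and sgg, for the fly glycogen synthase kinase (132). None of these 10 was in the highest 5586 regions of more than 1 replicate. Of all coding exon regions, 11 overlapped an IDR peak by at least 1 bp without being one, or 0.954%, against 3.96% of the other regions.

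The median pooled signal was lower at coding exons than at each of the 6 other locations. It was 60.5 at coding exon regions and 79.8 at the other regions, the 75th percentile 72.5 against 130, and the highest value 1487 against 5323. The lowest values, 48.9 in both sets, are set by the length of the list. The median rank was 22026 for coding exon regions and 14628 for the others. A −log10 q of at least 2 was reached by 26 coding exon regions, or 2.25%, and by 22.7% of the others, against 21.9% of the whole list. The coding exon median of 60.5 stood beside 68.8 in 3′ untranslated exons, 71.1 in intergenic DNA, 76.1 in introns, 77.7 in 5′ untranslated exons, 79.0 in non-coding exons and 99.97 within 500 bp of a TSS. The IDR share had the same ends, with 1.82% at coding exons, 10.2% in 3′ untranslated exons and 29.7% within 500 bp of a TSS. These are counts over regions of 1 list and were not tested, since regions are not replicates.

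**Figure D2:**
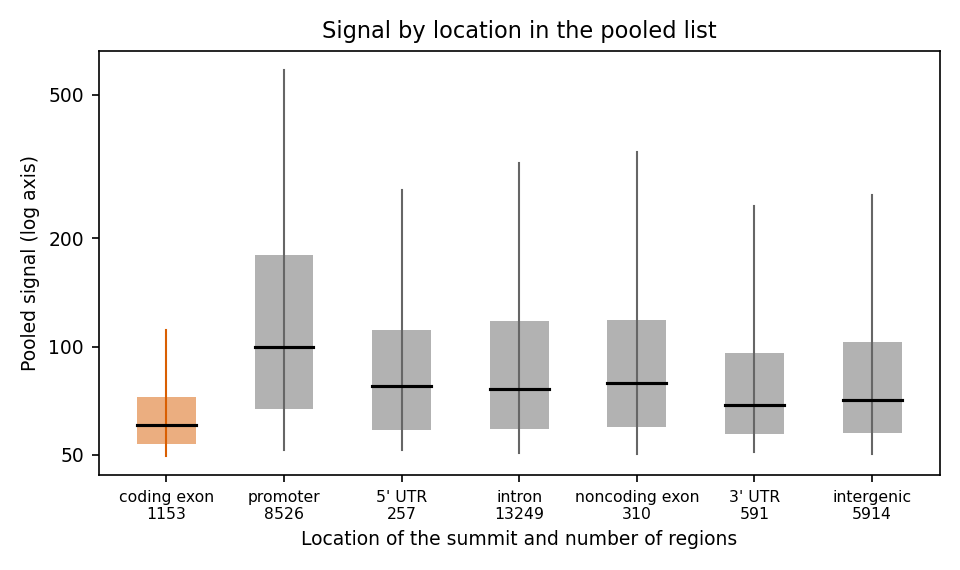
Pooled signal on a log axis by location of the summit, with coding exon regions at the left. Boxes span the 25th to 75th percentile, black bars are medians, thin lines span the 5th to 95th percentile, and the number of regions is under each name; the coding exon box, from 53.7 to 72.5, has the lowest median of the 7 locations.

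The count of coding exon regions was also small for the sequence available. Coding sequence over 500 bp from a TSS made up 18.6 Mb, or 13.9% of the 6 chromosome arms, while 3.84% of pooled regions fell there. That was 61.8 regions per Mb, against 250 regions per Mb in the rest of the arms, a 4.05-fold difference. For IDR peaks the densities were 1.13 per Mb in coding sequence and 48.3 per Mb in the rest, a 42.9-fold difference. Among arms, the density ran from 73.3 per Mb on 3L, through 66.8 on 2L, 65.7 on 3R and 63.6 on 2R, to 40.8 on X and 15.7 on 4, where only 4 regions lay. The other regions had 263 per Mb on 3L, 272 on 2L, 247 on 3R, 239 on 2R, 238 on X and 83.3 on 4, so arm 4 was lowest in both sets, while X lay close to 2R among the other regions. The lower coding exon density on X was seen within each replicate list as well, with 51.9, 69.6 and 63.9 coding exon regions per Mb on X in replicates 1, 2 and 3, below each of the 4 large autosomal arms of the same list, though in replicate 1 arm 3R was close, with 52.2 per Mb. On arm 4 the replicates gave 11.7, 74.4 and 97.9 per Mb over 0.255 Mb of coding sequence, with no common order against X.

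The share of coding exon regions climbed steadily down the pooled list. Of the 3000 highest regions 8 were in coding exons, or 0.267%, and of the 3000 lowest 243, or 8.10%. The lowest 3000 also had more than the highest 3000 in lists called from each replicate alone, to which the rule was applied afresh. In replicate 1 the share was 0.233% in the highest 3000 and 7.87% in the lowest 3000. Replicate 2 had 0.333% and 12.4%, and replicate 3 had 0.267% and 9.73%. The share within 500 bp of a TSS ran the other way in the pooled list, with 48.8% of the highest 3000 and 17.9% of the lowest 3000.

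**Figure D3:**
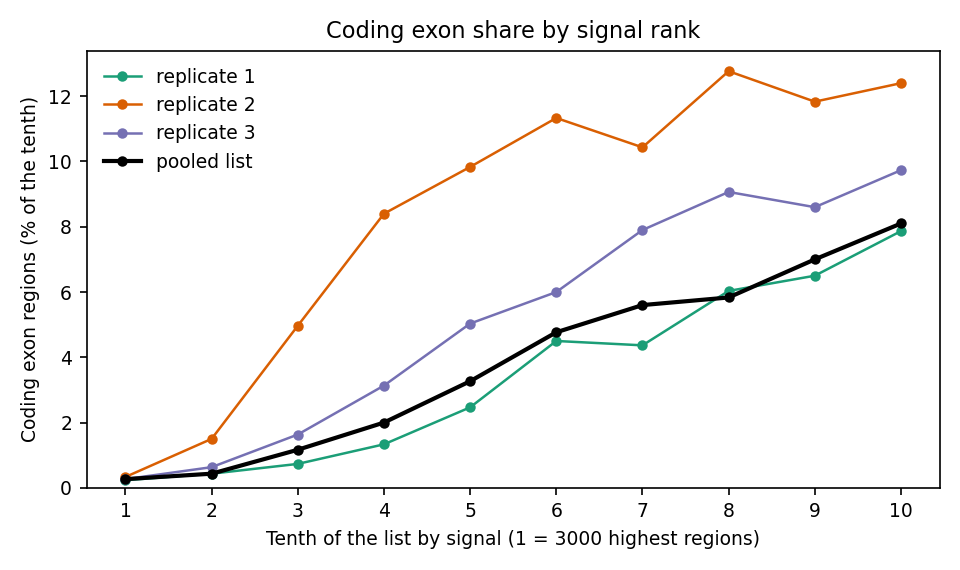
Coding exon regions as a percentage of each successive 3000 regions of a list, from the highest signal at the left to the lowest at the right, in the 3 replicate lists and the pooled list. All 4 lines start between 0.233% and 0.333%, and replicate 2 lies above the others from rank 3001 on.

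In each replicate list the share of coding exon regions was compared between the 5586 highest regions and the rest. Coding exon regions made up 0.286%, 0.788% and 0.394% of the highest regions in replicates 1, 2 and 3, against 4.17%, 10.1% and 6.30% of the rest. The difference was −3.88, −9.33 and −5.91 percentage points, with a mean of −6.37 ± 2.75 (SD, n = 3). It was negative in 3 of 3 replicates, and the two-sided exact permutation test over sign flips gave p = 0.25, the smallest value that 3 replicates allow. The median signal percentile of coding exon regions within a list, where 50 is the middle, was 23.6, 34.8 and 28.3. Its deviation from 50 averaged −21.1 ± 5.62 points (SD, n = 3), negative in 3 of 3 replicates, with an exact permutation p of 0.25. Neither comparison can reach a smaller p in this design.

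Replicate 2 stood apart from the other replicates. Its list held 2514 coding exon regions, or 8.38% of 30000, against 1034 (3.45%) in replicate 1 and 1560 (5.20%) in replicate 3. It also had the fewest regions past a −log10 q of 2, namely 3212 against 9759 and 6498, of which 11, 46 and 33 were in coding exons in replicates 2, 1 and 3. The order of the replicates by coding exon regions was thus the reverse of their order by regions past this q, over 3 lists only, and the part of library quality in it was not tested. Without replicate 2, the mean difference between the highest regions and the rest was −4.89 percentage points.

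Most coding exon regions did not recur. A pooled summit counted as found when it lay within a region of a replicate list. Of the 1153 coding exon regions, 133 were found in all 3 lists, or 11.5% (exact 95% interval 9.75 to 13.5%), against 36.4% of the other regions and 35.4% of the whole list. A further 408 were found in 2 lists, or 35.4%, against 35.6% of the other regions. In 1 list were 505, or 43.8%, against 24.3% of the other regions, and in none 107. The 107 made up 9.28%, against 3.66% of the other regions and 3.87% of the whole list. Only 10 were among the 5586 highest regions of all 3 replicates, or 0.867%, against 11.8% of the others and 11.4% of the whole list. Replicates 1, 2 and 3 held 479, 615 and 626 of the 1153, or 41.5%, 53.3% and 54.3%. Of the other regions they held 71.1%, 61.2% and 72.4%. The pooled list was made from the same reads as the replicate lists, so recurrence is not an independent check of a region.

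Much of this gap went with rank, as the plot of recurrence shows. Among the 6000 highest pooled regions, all 21 in coding exons were found in the 3 lists, 8 of 8 to rank 3000 and 13 of 13 from 3001 on, against 94.3% and 83.3% of the others. From rank 6001 to 12000 the shares were 54.7% of 95 coding exon regions and 57.6% of the others, and from 12001 to 18000 they were 18.7% of 241 and 22.5%. From 18001 to 24000 they were 3.50% of 343 and 6.52%, and in the last 6000 ranks 0.662% of 453 and 2.29%. Within these bins the shares thus lay closer to one another than over the whole list, with coding exon regions below the others from rank 6001 on. The bins match rank only roughly, since coding exon regions numbered 35 at ranks 6001 to 9000 and 60 at 9001 to 12000. The part of rank in the gaps that remain was not tested. Of the coding exon regions, 169 (14.7%) overlapped another pooled region and could share a replicate region with it, against 29.0% of the others.

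**Figure D4:**
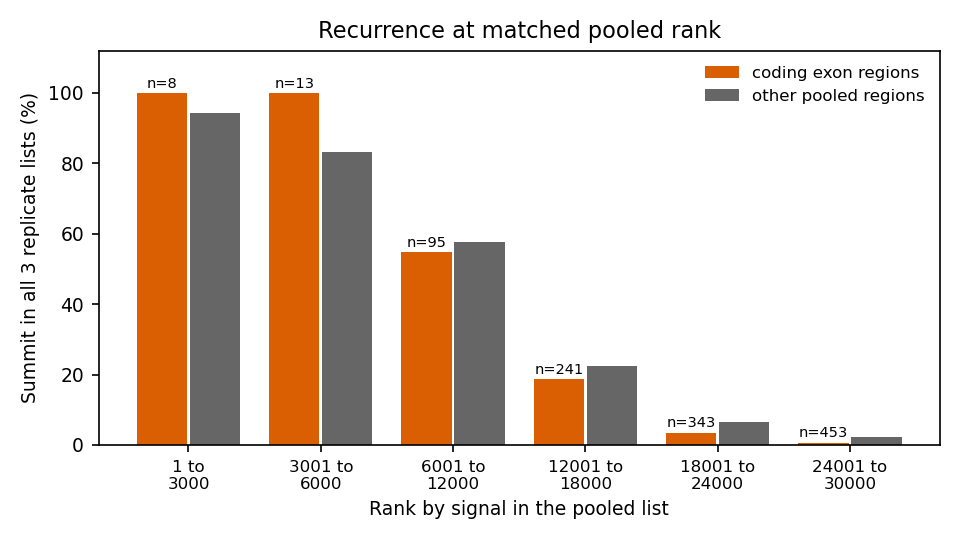
Percentage of pooled regions whose summit was found in all 3 replicate lists, in coding exon regions (left bars, with their number) and other regions (right bars), by rank in the pooled list. In both sets the share drops with rank, to 0.662% of coding exon regions and 2.29% of others in the last bin.

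Turned round, few coding exon regions of 1 replicate were met in the others. Found in both other lists were 124 of replicate 1, 121 of replicate 2 and 123 of replicate 3, or 11.99%, 4.81% and 7.88% of each list's coding exon regions. Found in no other list were 58.6%, 79.9% and 64.0%. These shares were not computed for the other regions of the same lists, so they do not set coding exon regions apart. The number shared by all lists was therefore nearly the same from each side, while the number seen in 1 list alone was largest in replicate 2.

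Within genes, coding exon summits were spread along the coding sequence. The median position was 50.5% of the way from start to stop codon, with quartiles of 20.3% and 77.1%. By exon, 214 summits lay in the first coding exon, 512 in internal ones, 330 in the last and 97 in genes with a single coding exon. The median coding exon was 541 bp long. Distance to the nearest edge of coding sequence had a median of 114 bp at coding exon summits, against 169 bp for windows laid every 200 bp along the available coding sequence. Within 50 bp of an edge were 311 summits, or 27.0%, against 20.7% of the windows. The IDR peaks lay nearer still, with a median of 51 bp and 10 of 21 within 50 bp, against 115.5 bp and 26.6% of the other 1132 coding exon regions. Only 2 of the 21 regions, those of Cht6 and CG4822, were coding from end to end, or 9.52%, against 32.9% of the other 1132. Coding bases filled a median of 57.8% of an IDR region and 84.0% of the rest. Also, 7 of the 21 summits were in an intron of another transcript, or 33.3%, against 15.2%. With 21 peaks these shares are imprecise and were not tested.

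The density of coding exon regions declined with distance from a TSS. There were 430 coding exon regions between 500 and 1000 bp, or 97.4 per Mb of coding sequence at that distance, 335 between 1000 and 2000 bp (62.9 per Mb), 241 between 2000 and 5000 bp (44.2 per Mb) and 147 beyond (42.6 per Mb). IDR peaks numbered 9, 6, 6 and 0 in these bins, or 2.09%, 1.79%, 2.49% and 0% of the coding exon regions there, against 19.6%, 17.5%, 14.9% and 11.6% of the other regions. A count of 0 among 147 allows a share of up to 2.04%, by counting error only. The median signals were 64.1, 59.2, 58.0 and 59.3 at coding exon regions and 81.8, 79.8, 73.0 and 70.6 at the others, which were thus also lower far from a TSS. Coding summits within 500 bp of a TSS, which the rule leaves out, numbered 575, of which 23 (4%) were IDR peaks. At the edge of the rule, LSm3 at 501 bp had a pooled signal of 52.4, Nubp2 at 502 bp had 73.1 and bou at 502 bp had 135. Just inside 500 bp, CG2736 at 499 bp had 66.0, CG9500 at 499 bp had 52.2 and tau at 498 bp had 82.3. The signals of these few regions overlapped across the boundary. As a set, the coding summits within 500 bp had a median signal of 65.5, against 60.5 at coding exon regions. Of the 1132 coding exon regions outside the IDR list, 101 (8.92%) lay within 1000 bp of an IDR summit, against 12.9% of the other regions outside it.

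The 1153 regions lay in 1021 host genes, or 7.32% of 13945 protein-coding genes and 8.22% of the 12419 with coding sequence over 500 bp from a TSS. Of the hosts, 905 had 1 region, 101 had 2, 13 had 3, bun had 4 and ftz-f1 had 5. Hosts had long coding sequences, with a median of 1689 bp against 1137 bp in genes without a region. In 5 classes of equal number by coding length, from short to long, 1.69%, 4.48%, 7.71%, 9.79% and 12.9% of genes were hosts. An IDR summit within 1000 bp of a TSS was present at 392 of the hosts, or 38.4%, and at 22.0% of the other protein-coding genes. Hosts were also the longer genes, and the part of length in this difference was not tested.

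Among genes with several regions, ftz-f1 carried 5, with pooled signals from 52.6 to 144, of which 2 were found in all 3 lists and none was an IDR peak. Its 2 highest regions, at summits 18763571 and 18763773 on chr3L, overlapped each other and had signals of 144 and 66.7. The 4 regions of bun had signals from 52.7 to 234, and the highest was the IDR peak described above. Of the 13 hosts with 3, those with the highest signals were bif, Cht6, klar, Glut4EF, CG42671, btsz, wake and CG32944. In bif, Cht6 and klar, 1 region was an IDR peak, and a weaker region lay 203, 202 and 265 bp from its summit, with signals of 86.8, 54.9 and 58.9. The overlapping pairs in ftz-f1, bif, Cht6, klar and btsz share a stretch of DNA and are not separate observations. Nor are the 3 regions of CG32944, each of which overlaps the next. The 3 regions of Glut4EF had signals of 124, 117 and 104, and their summits spanned 110953 bp.

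Host genes were then counted in 19 lists of genes by function, beside 8.22% of all genes with available coding sequence and 61.8 regions per Mb. Contractile and sarcomere genes had the highest share, with 11 hosts of 18 genes, or 61.1%. The longest coding sequence of these hosts ran from 669 bp at Mlc2 to 55407 bp at sls, so only some are long. Their 13 regions made 62.2 per Mb over the whole list, near the density of all coding sequence. Their signals ran from 48.9 to 77.0, all below the IDR threshold. Act57B, an embryonic muscle actin gene, had 77.0, the tropomyosin gene Tm1 had 3 regions up to 72.1, the myosin heavy chain gene Mhc had 69.5, and Act87E, another actin gene, had 68.0. Each of these was found in at most 2 replicate lists, and 1 of the 13, at the myosin light chain gene Mlc2, was found in 3.

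Of 92 cytosolic ribosomal protein genes, which are short, 6 were hosts, or 6.52%, near the 8.22% of all genes with available coding sequence. The 6 regions made 351 per Mb, over 17.1 kb of available coding sequence only. All lay 603 to 912 bp from a TSS, a distance at which coding sequence as a whole had 97.4 per Mb. The regions lay at RpS27 (88.6), RpL35 (68.6), RpL4 (67.6), RpL23A (66.5), RpL27 (57.1) and RpLP0-like (50.4), the last matched by its symbol only. All 6 were between 690 and 1005 bp from an IDR summit. Of all coding exon regions outside the IDR list, 8.92% lay within 1000 bp of one. None of the 6 was found in all 3 replicate lists, against 11.5% of all coding exon regions. A count of 6 is too small to tell apart from that share. Of the translation factor genes, eIF4A, for the helicase that unwinds messenger RNA leaders, had a region of signal 107 found in all 3 lists, and eEF2, for the factor that moves the ribosome, had 52.0.

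In the lists of genes for transcription and chromatin the signals, apart from otp, lay below the IDR threshold. The lists do not hold bun and jing, whose IDR peaks had pooled signals of 234 and 171. The median was 57.0 in the homeobox list outside Hox, 55.1 in the chromatin list and 69.4 in the zinc finger and BTB list. It was 67.9 in the Mediator list, against 60.5 at all coding exon regions. Of 66 homeobox genes outside the Hox clusters, 5 were hosts, with 6 regions at 54.4 per Mb, and apart from otp (1487) the signals were 62.6 at most, at vnd, a neural patterning gene. Six4, a muscle gene, had 60.7, and vvl, a POU-homeodomain gene of the trachea, had up to 53.4. Of 8 Hox genes, abd-A was a host, with 53.9. Of 31 chromatin regulator genes 4 were hosts, of which osa, a subunit gene of the Brahma remodelling complex, had 90.0 and was found in all 3 lists. Of 36 zinc finger and BTB regulator genes 6 were hosts, with cnc highest at 78.1, then chinmo (74.1), bowl (72.1) and pnr (69.4). None of their 7 regions was in all 3 lists, against 11.5% of all coding exon regions, too few to tell apart from that share. In the Mediator and general transcription list skd alone of 13 was a host, with 78.6.

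Lists of cell surface, matrix and cytoskeletal genes held 0 to 4 regions each, so their densities are imprecise, and they were not tested against the 61.8 per Mb of all coding sequence. There were 17.7 regions per Mb in 16 cadherin genes, both of them in shg, which encodes E-cadherin, with up to 59.3. Matrix and basement membrane genes had 11.5 per Mb, in wb, a laminin gene (73.3), and SPARC (55.0). The mucin-named genes had 1 region, in Mur89F (62.3), at 9.04 per Mb. Large linker and motor genes had 21.5 per Mb, with beta-Spec, the β-spectrin gene, at 72.5 and Dys, the dystrophin gene, at 61.7, while apical matrix genes had 19.4 per Mb, in tyn (54.3) and pio (49.2). The 15 listed receptor tyrosine kinase and phosphatase genes had 15.2 per Mb, in Ptp10D (57.6). This list is partial too, since the receptor tyrosine kinase gene Ddr (67.4), outside it, was a host. The 16 listed ion channel genes, with 77.6 kb of available coding sequence, had none. By counting error this allows up to 3 regions, or 38.7 per Mb. The list is partial, since the channel genes GluRIB (106) and nAChRbeta1 (103), outside it, were hosts. The list drawn up for EGF-repeat and Notch pathway genes had 59.6 per Mb, with neur (59.7) and N (54.1). This density also counts dnr1 (49.5), which is not an established Notch pathway gene.

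Cuticle proteins and chemoreceptors, which are made late in embryos or in few cells, were not empty of regions. Of 118 cuticle protein genes 4 were hosts, or 3.39%, at 92.4 per Mb of little coding sequence, with Cpr65Au (111) and Cpr64Aa (94.7) found in all 3 lists and TwdlN at 58.4. Of 119 odorant and gustatory receptor genes 7 were hosts, or 5.88%, with 81.2 per Mb. Their highest signals were 70.8 at Gr57a, 68.4 at Gr97a, 58.8 at Or88a and 58.7 at Gr5a. None of these receptor regions was found in all 3 lists, but they are too few to set against the 11.5% of all coding exon regions. Of 22 metabolic and large cytosolic enzyme genes 6 were hosts, at 36.6 per Mb, among them the glycolytic genes Pfk (91.3), Hex-A (72.1) and Gapdh2 (64.4).

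The DNA at coding exon summits resembled coding DNA in composition. The 200 bp at the summit had a GC content of 53.5 ± 6.86% (SD over 1153 regions), against 40.9 ± 8.08% at the other regions and 51.9 ± 7.16% in 93194 windows along coding sequence. The IDR peaks among them had 51.5%, and the other IDR peaks 37.1%. In the replicate lists the coding exon regions had 53.3%, 53.5% and 52.5%, a mean of 53.1 ± 0.509% (SD, n = 3), against 41.1 ± 0.572% for the other regions of the same lists. The regions were chosen by lying in coding sequence, which had 53.4% GC where available. A gap from the other regions thus came with the choice.

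**Figure D5:**
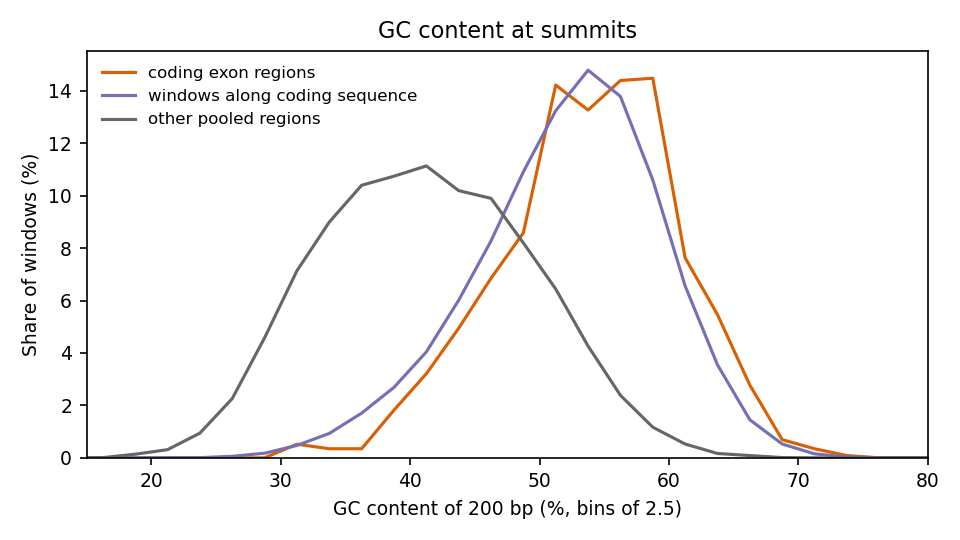
Distribution of GC content in 200 bp, as the percentage of windows per bin of 2.5 points, for coding exon summits, for windows along coding sequence and for other pooled summits. The coding exon curve, of mean 53.5%, lies just right of that of coding windows, of mean 51.9%, and far right of the other regions, of mean 40.9%.

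Homeodomain words were about as rare at coding exon summits as in coding sequence at large. Each word was searched on both strands of the 200 bp. The word TAATTA was present at 3.12% of coding exon summits, against 13.0% of the other summits and 2.98% of coding windows. The word ATTAA with C or T before it and A or G after it was present at 6.50%, against 20.5% and 7.98%. Either kind, counted once where the words overlap, was present at 9.28%, against 30.2% and 10.5%. In replicates 1, 2 and 3 this last share was 9.67%, 9.35% and 9.36% of coding exon regions. Among the 21 IDR peaks in coding exons 1 held such a word, at CG4822, against 38.2% of the other IDR peaks. The related CAATTA was at 7.46%, against 17.8% and 6.49%. No match says only that these letters are not in this window.

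Most words of other factors also stood near their shares in coding windows. GAGAG, the word of GAGA factor, was at 22.8% of coding exon summits, 24.2% of the others and 23.0% of coding windows. CAGCAG, a run of glutamine codons in 1 frame, was at 31.7%, 13.4% and 29.8%, and at 7 of the 21 IDR peaks. CAGGTA, the core of the Zelda word, was at 6.94%, 4.17% and 6.46%, and the E-box CACGTG at 2.52%, 2.58% and 2.97%. The promoter word TATCGATA, of the DNA replication-related element, was at 0.173%, 1.29% and 0.176%, and GGTCACAC, the core of motif 1, was at 0.694% (8 summits), 1.12% and 0.342%. None of these matches shows that a factor was bound.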

How the data were processed

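Per the labels, 3 biological replicates of 1 group were sequenced. The authors deposited a list of 30000 regions per replicate, one from pooled reads, and an IDR list of 5586 peaks. The signal of each region is the authors' value, as is the deposited −log10 q, and neither was rescaled. The sources used here do not give the aligner, the peak caller or the IDR threshold. The control alignment was not analysed here, and dm3 lists were not used. With no reads in these files, the depth is unknown.

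Summits were placed with Ensembl release 115 (BDGP 6.54), without transposable elements and pseudogenes, leaving 23307 distinct TSSs. Sequence came from RefSeq, genome release 6. A pooled summit was found in a replicate when it lay in one of its regions. The 3 replicate values were tested with a two-sided exact sign-flip permutation test, and the rule and this test were checked on positions with known answers. Regions and genes were counted without tests.

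Named genes are hosts of IDR peaks, of the 10 highest other regions found in all lists, of the most regions (10 genes), of regions at the 500 bp limit, and the 4 highest per gene list. Other genes of the lists, Mlc2, RpL27, RpLP0-like and dnr1 among them, were named after their values were seen. So were GluRIB, nAChRbeta1 and Ddr, which are in none of the lists. Sequences were chosen from IDR peaks, after seeing them. Members, lists and words were chosen with earlier results of these data known, and the cuticle list pattern was corrected because it matched a cytochrome P450 reductase gene. Python 3.11.15, numpy 2.4.6, pandas 2.3.3, scipy 1.17.1 and matplotlib 3.10.9 were used.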

Additional observations from a re-analysis of the deposited data

How the results depend on the processing

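The 9 results were recomputed under 57 alternative settings. In 41 they kept their direction or stayed within the spread used for each (replicate SD, binomial interval or 1.5 times a count), and in 16 they moved; none changed direction. With a TSS distance of 1000 bp the coding exon regions fell to 723 and their host genes to 645, the median pooled signal was 58.7, and 10.2% of summits held a TAATTA or related word. Overlap of at least 1 bp with an IDR peak gave 2.78%, against 23.2% of other regions. With the 100 bp at the summit wholly coding, 844 regions were left, and 1.30% of them were IDR peaks, against 1.82% in the main setting. With coding required in every overlapping transcript, 908 regions were left, with 1.54%. These values stayed within the spread used. Both the regions and the IDR share were lower, however, so some IDR peaks described above were lost under each setting. The share found in all 3 lists was 9.54% with summits within 150 bp (others 31.9%), 15.9% with overlap of at least 1 bp (others 46.1%), 0.867% among the highest regions of each replicate (others 11.8%), and 9.63% without regions overlapping an IDR peak, a setting chosen after seeing the data. Leaving out 1 replicate, the share found in both others was 19.0% to 27.1% (other regions 44.0% to 55.6%), the difference between highest regions and the rest was −7.62 to −4.89 points, and the median percentile was −24.0 to −18.4 points from 50, with a smallest possible p of 0.5. In windows of 100 and 400 bp the GC content was 55.1% and 51.6%, and homeodomain words were at 3.30% and 22.9% of summits (others 16.5% and 50.4%). No paired analysis was possible because all samples belong to 1 group. Region lists without reads give no depth, so weak regions below rank 30000 were not seen, and 3 replicates cannot reach a p under 0.25.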
